A study of Mus musculus with 14 samples.

Results

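The cytosolic ribosomal protein genes were taken from the gene symbols of both kinds of deposited table. A symbol was included when it read Rpl or Rps followed by a number with at most 1 letter from a, x, y or l and 1 more digit, or when it was Rplp0, Rplp1, Rplp2 or Rpsa. Kinases, binding proteins and symbols with -ps were left out. This gave 84 genes of 24345 symbols in the RNA-seq tables and of 24394 symbols in the RNA immunoprecipitation (RIP) tables. Of these, 33 name small subunit proteins, 48 name large subunit proteins and 3 name the stalk proteins. All 84 lay at a single locus, on 19 chromosomes.

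The ribosome translates messenger RNA into protein. Its small subunit holds the message and reads the codons, its large subunit joins the amino acids, and the acidic stalk of the large subunit (P0, P1 and P2) recruits elongation factors. Ribosomal protein messages are short, among the most abundant of a growing cell, and most start with a run of pyrimidines, the terminal oligopyrimidine (TOP) motif, through which the kinase mTOR and the protein Larp1 control their translation. Several have paralogs (Rpl10l, Rpl39l, Rps4l, Rpl3l, Rpl22l1, Rps27l), some of which are expressed more narrowly than the main gene. Rpl10l and Rpl39l are known from the testis and Rpl3l from muscle.

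RNA was measured in 14 mouse libraries, 2 in each of 7 groups. The labels do not say whether the pair came from separate cultures, and if it did not, the p-values reflect technical spread. RNA-seq covered wild type, untreated embryonic stem cells of a line the labels call home made (mESC), wild type, untreated primary fibroblasts of the embryo (MEF), an untreated Dppa5a knockdown of the stem cells (Dppa5a_KD), and its wild type, untreated control (KD_control). Dppa5a encodes an RNA-binding protein of pluripotent cells. The RIP libraries came from stem cells that overexpress 3Flag-Dppa5a, in the controls too: IgG pulldown of untreated cells (IgG_RIP), Flag pulldown of untreated cells (Flag_RIP), and Flag pulldown after a treatment labelled HU (HU_Flag_RIP), an abbreviation that the labels do not spell out. The sources used here do not give how Dppa5a was knocked down or what the control cells received. Stem cells were grown on feeder cells and passaged on gelatin before use.

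The targeted gene was checked first, in FPKM (fragments scaled by transcript length and library size). Dppa5a stood at 5126 and 5417 FPKM in KD_control against 101 and 358 in Dppa5a_KD, which is the direction the labels give. The other stem cells, mESC, had 1485 and 1818, and MEF had 0 and 0.0871. In the pulldowns it stood at 232 and 252 CPM (counts per library size multiplied by its TMM factor, by edgeR) with IgG, 170 and 160 with Flag and 114 and 114 in HU_Flag_RIP, so the Flag libraries held no more Dppa5a message than the IgG libraries, and by library size alone the order was the same (335 and 403, 134 and 135, and 88.9 and 94.5). All 6 stem cell markers (Pou5f1, Nanog, Zfp42, Sox2, Esrrb, Klf4) were higher and all 8 fibroblast markers were lower in mESC than in MEF by limma. The RIP libraries held 3472020 to 13033886 counts, of which 4 abundant RNAs (Rn45s, Rmrp, Rpph1 and Lars2) took 77.3% to 89.2%.

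The start of these genes is where the TOP motif lies, so the bases around it are shown first. RefSeq promoter sequences (GRCm38.p6, 250 bases before to 50 bases after the start) were matched by symbol for 63 of the 84 genes. Between 20 bases before and 50 bases after the start, an unbroken run of at least 8 pyrimidines (C or T, sense strand) was found in 76.2% of the 63, against 28.5% of the 27025 genes in the RefSeq table. In the window from 90 to 20 bases before the start, which has the same length, the same run was found in 38.1% and 31.0%. Each line below gives 10 bases before and 20 bases after the annotated start, 5′ to 3′ on the gene's strand, with the longest pyrimidine run in capitals. In this window of 30 bases, a run of at least 8 was found in 24 of the 63 genes. The first 6 genes shown have long runs and do not stand for the set, and the last 4 are 2 paralogs of the results below and their main genes.
Rpl27a, chr7:109519185-109519214, plus strand: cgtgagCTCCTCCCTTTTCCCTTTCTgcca
Rpl35, chr2:39005112-39005141, minus strand: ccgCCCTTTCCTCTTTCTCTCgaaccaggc
Rpl13a, chr7:45128726-45128755, minus strand: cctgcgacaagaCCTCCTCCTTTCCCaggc
Rpl38, chr11:114668570-114668599, plus strand: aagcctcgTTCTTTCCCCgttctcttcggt
Rplp2, chr7:141447641-141447670, plus strand: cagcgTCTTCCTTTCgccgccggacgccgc
Rps6, chr4:86857348-86857377, minus strand: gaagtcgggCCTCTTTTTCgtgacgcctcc
Rpl39, chrX:37085203-37085232, minus strand: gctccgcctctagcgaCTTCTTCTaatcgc
Rpl39l, chr16:10170218-10170247, plus strand: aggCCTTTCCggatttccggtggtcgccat
Rpl10, chrX:74270806-74270835, plus strand: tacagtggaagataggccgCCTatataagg
Rpl10l, chr12:66284382-66284411, minus strand: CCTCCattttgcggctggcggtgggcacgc
The run was 20 bases long in Rpl27a, 18 in Rpl35, 14 in Rpl13a, 10 in Rpl38, Rplp2 and Rps6, 8 in Rpl39, 7 in Rpl39l, 5 in Rpl10l and 3 in Rpl10. The annotated start sets which bases fall in the window, so a short run says only that these letters are not there.

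Over the whole 300 bases and on either strand, CGGAAG, a core of binding sites for ETS factors, was found in 66.7% of the 63 genes and 18.8% of all. GGGCGG, an SP1 box, was found in 61.9% and 38.2%. ATGGCG, part of the YY1 site, was found in 33.3% and 10.2%. TATAAA within 50 bases before the start (sense strand) was found in 1 of the 63 genes, 1.59%, and in 3.15% of all. These are matches of letters and not binding sites. The 100 bases before the start are shown for the paralog Rpl39l, with its CGGAAG in capitals, and for Rpl39 and Rpl10l, which have none in that stretch.
Rpl39l, chr16:10170128-10170227, plus strand: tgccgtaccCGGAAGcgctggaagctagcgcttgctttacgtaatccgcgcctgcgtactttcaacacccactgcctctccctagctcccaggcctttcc
Rpl39, chrX:37085223-37085322, minus strand: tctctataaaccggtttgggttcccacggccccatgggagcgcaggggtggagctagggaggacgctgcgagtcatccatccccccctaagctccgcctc
Rpl10l, chr12:66284402-66284501, minus strand: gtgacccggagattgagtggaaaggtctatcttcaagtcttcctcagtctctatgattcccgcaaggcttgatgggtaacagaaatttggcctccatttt

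The 84 genes held 15.8% to 24.7% of all FPKM of a library. Fibroblasts had shares of 21.0% and 18.9% and stem cells of 20.1% and 24.7%, while the knockdown had 15.8% and 22.2% and its control 22.2% and 22.3%. The median gene stood at 1089 and 981 FPKM in fibroblasts (MEF) beside 920 and 1394 in stem cells (mESC), and at 921 and 1589 in the knockdown beside 1423 and 1474 in its control. Mean shares were 22.4% ± 3.21 (SD, n = 2) in mESC and 20.0% ± 1.45 (SD, n = 2) in MEF, and 19.0% ± 4.54 (SD, n = 2) in Dppa5a_KD against 22.3% ± 0.119 (SD, n = 2) in KD_control. The libraries of the compared groups overlapped in both cases (exact permutation test, two-sided, p = 0.667 for each), and 2 libraries against 2 cannot give less than p = 0.333. Without the 10 most abundant other symbols the knockdown shares, 16.8% and 23.6%, lay below both controls, 23.9% and 24.1% (exact permutation test, two-sided, p = 0.333).

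**Figure D1:**
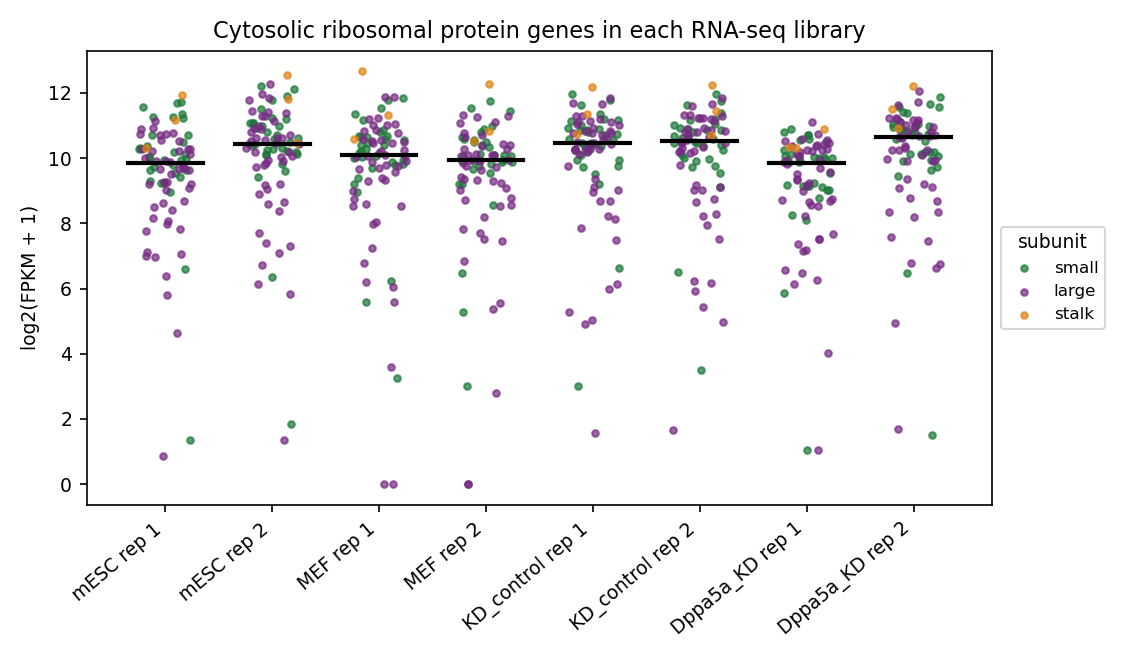
Level of each of the 84 ribosomal protein genes as log2(FPKM + 1) in the 8 RNA-seq libraries, 1 point per gene, coloured by subunit, with the median as a black bar. The medians of mESC replicate 1 and Dppa5a_KD replicate 1 lie below those of the other stem cell libraries.

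Levels varied widely among the 84 genes. FPKM are per length, and genes are ranked by them here. The ranking is rough, because read assignment between copies and differences between libraries of 1 group, given below, limit it. Rplp1, a stalk protein, had the highest mean over the 8 libraries (4686 FPKM), ahead of the small subunit gene Rps12 (3583) and the large subunit gene Rpl41 (3043). It was first in 7 of 8 libraries, while in Dppa5a_KD replicate 1 Rpl32 (2229) and Rps12 (1910) stood above it (1898), and the order of the next genes differed between libraries. Rplp2, its stalk partner, had 2292 and 3615 FPKM in the mESC libraries against 2552 and 1811 in MEF. Rplp0, the stalk base, had 1279 and 1398 against 1538 and 1469. Between 36 and 60 of the 84 genes reached 1000 FPKM in a library and 5 to 9 stayed under 100. The low end held the paralogs Rpl3l, Rpl39l, Rpl10l and Rpl7l1, and the main genes Rps27, Rpl30, Rps15a and, in part of the libraries, Rpl26.

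The level of some of these low genes depends on how reads of near-identical copies were assigned. Rps27, a small subunit protein, was listed at 1.54 and 2.62 FPKM in mESC against 8.59 and 7.06 in MEF. Its retrocopy Rps27rt was listed at 3714 and 3428 against 2642 and 4457. Rpl34 stood between 138 and 294 FPKM over the 8 libraries, and its copy Rpl34-ps1 between 1196 and 2669. In the RIP tables Rpl26 had 0 counts in all 6 libraries (a count of 0 allows up to 3 counts in a library), Rpl30 had 0 to 2, Rpl34 2 to 16 and Rps27 0 to 15. Values of Rps27, Rpl26, Rpl30, Rpl34, Rps15a, and of Rps4l and Rpl10l with their main genes, are therefore uncertain, and the part of copies in them was not tested.

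Libraries of 1 group stood apart from each other in these genes. Dppa5a_KD replicate 2 was above replicate 1 in 84 of 84 genes, by a median of 0.84 on the log2(FPKM + 1) scale, while the median over all 11506 genes was 0.04. Rplp1 stood at 1898 and 4732 FPKM in the 2 knockdown libraries and at 4618 and 4863 in the controls. In mESC, replicate 2 was above replicate 1 in 75 of 84 genes, by a median of 0.53 (all genes 0.10). Rpl38, a large subunit protein tied to selective translation in the embryo, stood at 1250 and 4964 FPKM in mESC, and Rpl11, which with Rpl5 restrains Mdm2, at 541 and 1930. In MEF the median difference was -0.22 and in KD_control 0.03, so the control libraries lay closest together.

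The difference between the knockdown libraries ran with a length estimate of the genes. The tables give no length, so fragments per FPKM were estimated from the confidence bounds and set to the median gene of each library; the estimate also falls where reads cannot be split among isoforms. The median of the 84 genes was 0.164 of the median gene, and 82 of 84 lay below it. Over all genes, replicate 2 minus replicate 1 had a median of 0.64 in the tenth of genes with the lowest estimate and -0.34 in the tenth with the highest. Among the ribosomal protein genes it was 1.17, 0.87 and 0.66 in the lowest, middle and highest 28, with a Spearman correlation of -0.43 across the 84 genes of this library pair, which are not independent. The mitochondrial ribosomal protein genes, another set of short messages, differed by a median of 0.53. Each comparison below that uses these libraries is given with and without them, and the part of length or RNA quality in the results was not tested.

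**Figure D2:**
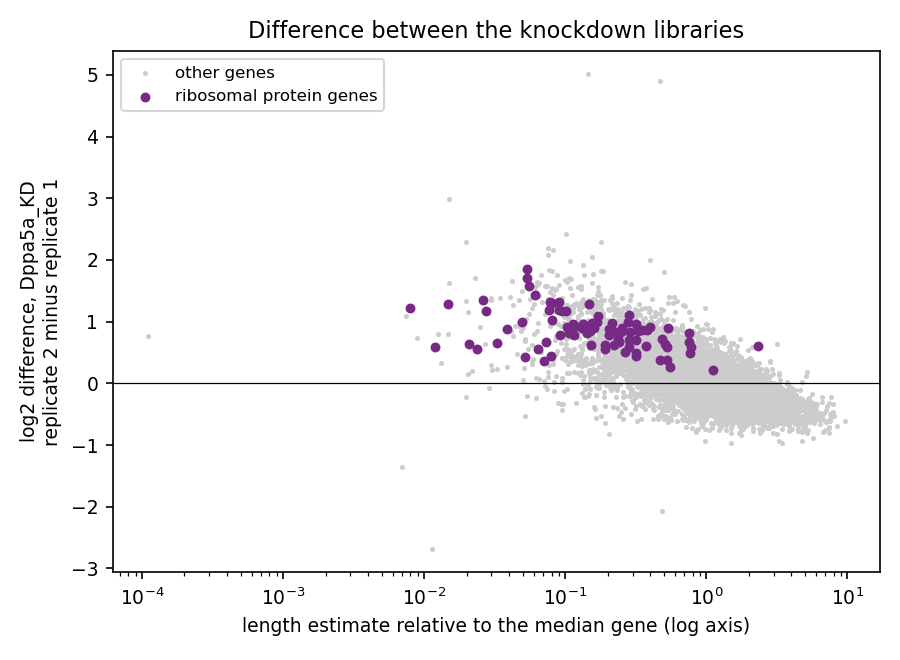
Difference between the 2 Dppa5a_KD libraries in log2(FPKM + 1) for each gene, against its length estimate relative to the median gene on a log axis. The 84 ribosomal protein genes (purple) lie at the low end of the estimate and all above 0, and the other genes (grey) fall from above to below 0 as the estimate grows.

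The first comparison asks which genes set stem cells apart from fibroblasts. In it most ribosomal protein genes did not pass the test, and paralogs made up all 5 calls in the direction of stem cells. By limma, 5 of 84 genes were higher in mESC (Rpl10l, Rps4l, Rpl39l, Rpl3l, Rpl7l1) and 1 was lower (Rps27), 7.14% of them. Of all 12875 genes tested 56.7% were called, 30.6% higher and 26.1% lower. The median log2 fold change was 0.18, beside 0.15 over all genes, and 74 of 84 lay within 1.5-fold. Median-ratio scaling of the libraries moved the median of all genes to 0.00 and that of the ribosomal protein genes to 0.02. The median was 0.45 without mESC replicate 1 and -0.09 without mESC replicate 2, so its sign rests on 1 library. The small subunit genes had a median of 0.21 and the large subunit genes of 0.15. In bulk samples fewer cells of a type and less RNA per cell cannot be told apart. The typical gene had a standard error of 0.31, so a change of that size was not detectable here.

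Rpl10l, a retrogene paralog of the subunit-joining protein Rpl10, stood at 128 and 158 FPKM in mESC and was listed at 0 in both MEF libraries (limma, adjusted p = 5.7e-05). Its share of the Rpl10 plus Rpl10l level was 6.89% and 8.57% in mESC, while Rpl10 itself stood at 1728 and 1683 against 1539 and 1661. Rps4l, a paralog of the X-linked small subunit gene Rps4x, stood at 748 and 1124 FPKM in mESC against 47.2 and 37.7 in MEF. That is a log2 fold change of 4.41 (SE 0.30, limma adjusted p = 0.00025), with no overlap between the cell types. Rps4l made up 30.9% and 41.9% of the summed level of the pair in stem cells against 3.68% and 2.40% in fibroblasts, while Rps4x stood at 1673 and 1561 against 1236 and 1533.

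Rpl39l, a paralog of the exit tunnel protein Rpl39, stood at 54.9 and 55.6 FPKM in mESC against 11.1 and 6.01 in MEF. The log2 fold change was 2.61 (SE 0.31, limma adjusted p = 0.0016), both mESC libraries lay above both MEF libraries, and Rpl39 stood at 1921 and 1569 against 1736 and 2200. Rpl39l was at most 3.42% of the summed level of the pair in either cell type. Rpl7l1, a paralog of the large subunit gene Rpl7, stood at 83.4 and 104 FPKM in mESC against 46.8 and 46.1 in MEF, again without overlap. Its log2 fold change was 0.99 (SE 0.22, limma adjusted p = 0.014). Rpl3l was close to the lower limit of the filter, with 0.807 and 1.57 FPKM in mESC and a listed 0 in both MEF libraries (limma, adjusted p = 0.0075). Rps27 fell by 1.54 on the log2 scale (SE 0.25, limma adjusted p = 0.0044), with the doubt about Rps27rt given above.

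**Figure D3:**
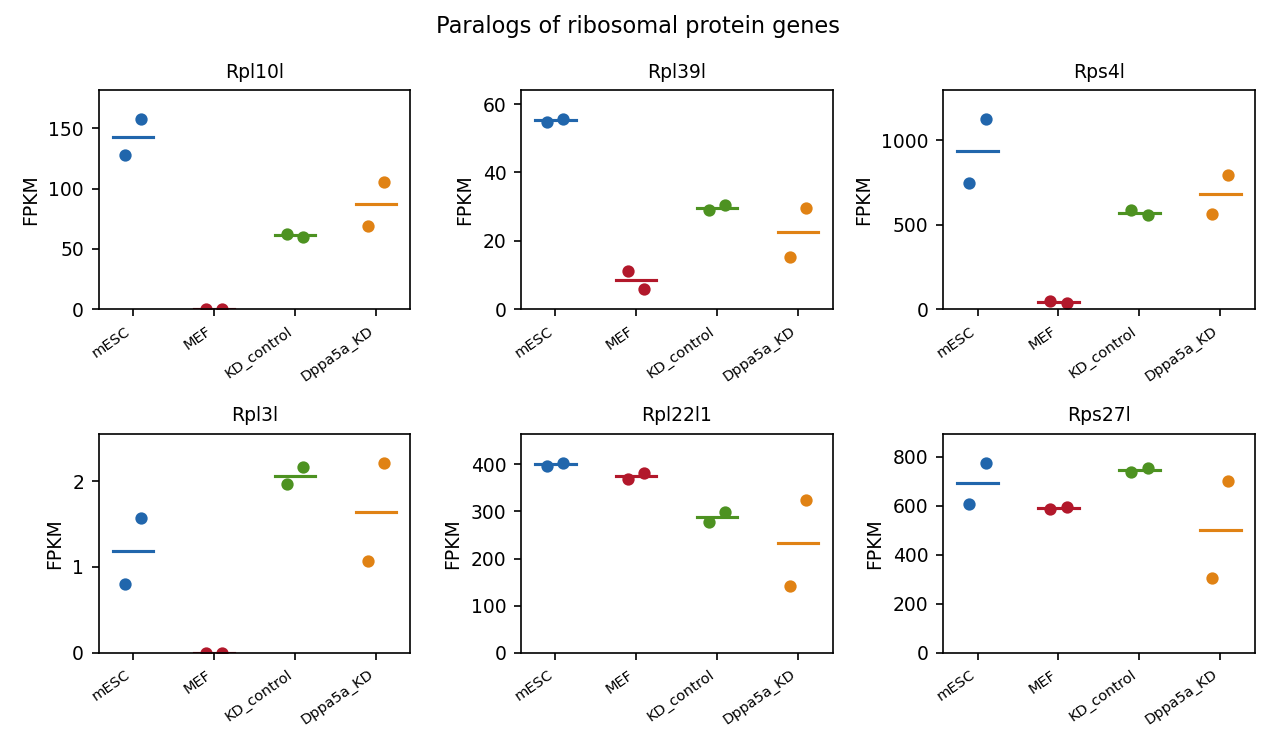
FPKM of 6 paralogs in each RNA-seq library, 2 points per group with the mean as a bar; each panel has its own axis from 0. Rpl10l, Rpl39l and Rps4l are lowest in both MEF libraries, and Rpl22l1 and Rps27l differ less between mESC and MEF than between the 2 Dppa5a_KD libraries.

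In the other 2 pairs neither gene of Rpl22 and Rpl22l1, nor Rps27l, passed the test. Rpl22l1, a paralog of the RNA-binding protein Rpl22, stood at 397 and 404 FPKM in mESC against 370 and 381 in MEF, above Rpl22 itself (124 and 166, and 109 and 114). Rps27l, a p53-responsive paralog, stood at 606 and 777 against 587 and 594. Among genes of general interest, the scanning-channel gene Rps3 stood at 494 and 682 against 494 and 373, and Rps6, the substrate of S6 kinase, at 788 and 900 against 669 and 740. Rps19, mutated in Diamond-Blackfan anaemia, stood at 1244 and 1181 against 1049 and 815. None of Rps3, Rps6 and Rps19 passed either.

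Genes that build ribosomes were counted in the same fit. Of 30 assembly factors, 22 were higher in mESC and 0 lower, with a median log2 fold change of 1.05. Dkc1, the pseudouridine synthase, stood at 79.5 and 81.1 FPKM in mESC and 21.1 and 23.8 in MEF. Of 14 RNA polymerase I genes, 9 were higher (Polr1b 33.9 and 34.5 against 8.93 and 7.85) and 0 lower. Of 77 mitochondrial ribosomal protein genes 23 were higher, near the share of all genes, and 1 lower, and of 14 elongation factors and other TOP messages 1 was higher (Npm1), beside 30.6% and 26.1% of all genes. Npm1 lost its call in 5 of 14 alternatives, among them the fits without mESC replicate 2 and without either MEF library (limma adjusted p up to 0.33). The regulator Mycn was higher in mESC (40.1 and 43.1 against 0.643 and 0.384 FPKM) and Myc lower (16.7 and 16.0 against 37.2 and 33.1), but the Myc call was lost when either MEF library was left out (limma adjusted p up to 0.13). Whether these lists differ from the ribosomal protein genes was not tested.

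The calls on Rpl10l, Rps4l and Rpl39l passed under each alternative run. Without MEF replicate 1, and likewise without MEF replicate 2, these 3 were the called genes that remained of the 6.

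**Figure D4:**
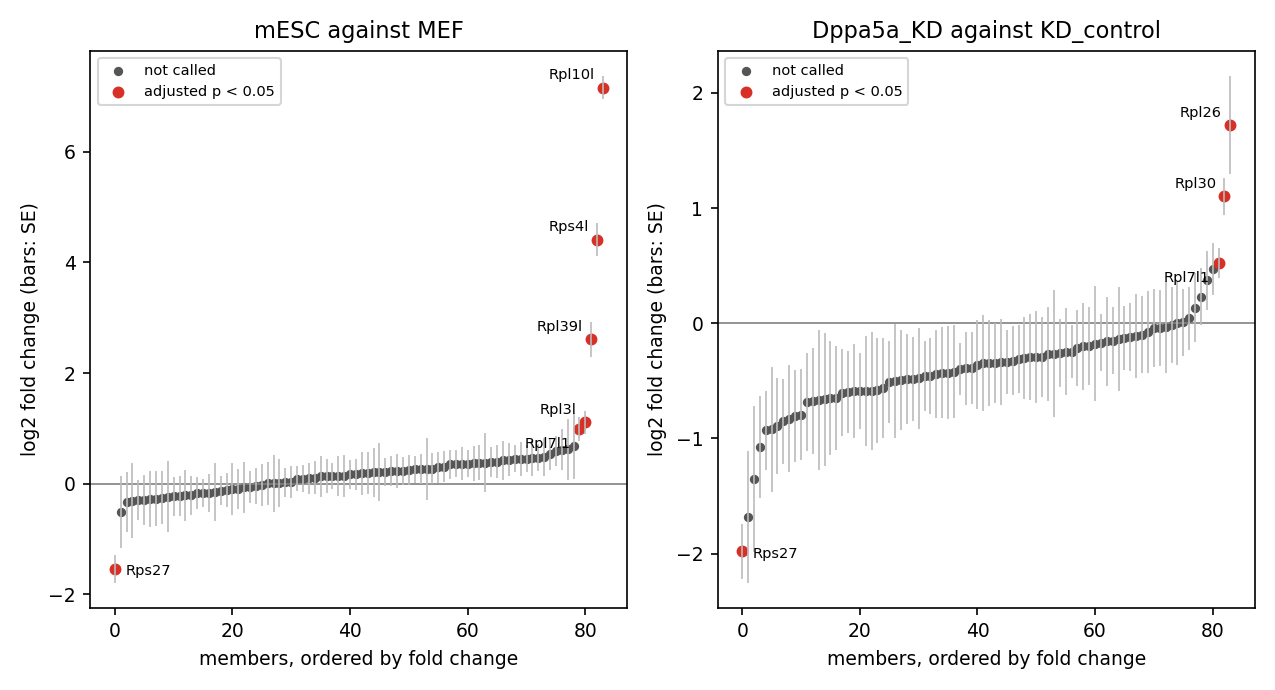
Log2 fold change of each of the 84 genes with its standard error, ordered within each panel, for mESC against MEF (left) and Dppa5a_KD against KD_control (right); red points passed the limma test at an adjusted p under 0.05. On the left most genes lie near 0 and paralogs stand out, and on the right most lie below 0 with wide errors.

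The second comparison asks what loss of Dppa5a changes in stem cells. Taken over both libraries, few ribosomal protein genes passed the test after Dppa5a knockdown, and the median of the set depended on which knockdown library was read. By limma 3 of 84 genes were higher (Rpl26, Rpl30, Rpl7l1) and 1 lower (Rps27), 4.76% of them. Of all 12345 genes tested 37.4% were called, 13.6% higher and 23.8% lower. The median log2 fold change was -0.35, beside -0.11 over all genes, with a typical standard error of 0.37. In 31 genes both knockdown libraries lay below both controls and in 5 above; for all genes these shares were 44.8% and 30.8%.

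With Dppa5a_KD replicate 1 alone against the controls (replicate 2 left out), 77 genes were lower and 4 higher, with a median of -0.74. With replicate 2 alone, 19 were lower and 34 higher, with a median of 0.07. In these fits the lone library is assumed to vary like the controls. Of all genes, 46.1% were lower and 30.2% higher with replicate 1 alone, and 39.9% lower and 29.7% higher with replicate 2 alone. Scaling the FPKM to a common sum gave 4 higher and 2 lower, scaling to an equal median of these genes gave 2 higher and 7 lower, and the fit over all 8 libraries gave 0 higher and 2 lower.

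Rpl7l1 stood at 94.0 and 110 FPKM after knockdown and 69.7 and 71.4 in the controls, with both knockdown libraries above both controls (log2 fold change 0.52, SE 0.13, limma adjusted p = 0.034). Rpl30, a large subunit protein, stood at 76.3 and 98.8 against 38.2 and 41.8 (1.10, SE 0.16, limma adjusted p = 0.011). Rpl26, which also binds the p53 message, stood at 141 and 190 against 32.0 and 74.6 (1.72, SE 0.42, limma adjusted p = 0.034). None of the 3 overlapped with the controls. For Rpl26 the controls differed from each other by more than 2-fold, and for Rpl26 and Rpl30 the assignment of copies is open to the same doubt as above. Rpl7l1 lost its call when either control library was left out, and the fit on all 8 libraries called none of the 3.

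Rps27 stood at 1.07 and 1.82 FPKM after knockdown against 7.0 and 10.3 in the controls, the lowest of the set beside Rpl3l (log2 fold change -1.98, SE 0.24, limma adjusted p = 0.0077). Its copy Rps27rt stood at 1221 and 2619 against 3735 and 4127. In mESC, Rps27 stood at 1.54 and 2.62, closer to the knockdown than to the controls. Rpl39 stood at 408 and 1223 FPKM against 2130 and 2416, with both knockdown libraries below both controls, and was outside the threshold (log2 fold change -1.68, SE 0.57, limma adjusted p = 0.076). It passed in 6 of 13 alternatives, with log2 fold changes of -0.89 (without Dppa5a_KD replicate 1) to -2.47 (without replicate 2) and limma adjusted p from 7.6e-11 to 0.19 over all 13. Its paralog Rpl39l stood at 15.4 and 29.6 against 29.0 and 30.5.

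The remaining named genes followed the split between the knockdown libraries. The stalk gene Rplp2 stood at 1264 and 2888 FPKM against 2603 and 2810, Rps19 at 581 and 1165 against 1422 and 1458, and Rps6 at 514 and 955 against 983 and 1015. Rpl11 stood at 994 and 1790 against 1763 and 1867, and Rpl5, which assembles with it and 5S RNA, at 381 and 559 against 520 and 518. In these genes replicate 1 was well below the controls and replicate 2 was near them. Rpl22l1 stood at 143 and 324 FPKM against 278 and 299, and Rpl22 at 88.2 and 176 against 231 and 247, so that Rpl22l1 made up 61.8% and 64.8% of the pair after knockdown and 54.6% and 54.8% in the controls. Rps4l made up 37.1% and 31.9% of its pair after knockdown and 23.3% and 22.2% in the controls. Rpl10l made up 6.87% and 5.92% of its pair after knockdown and 3.87% and 3.58% in the controls. In these 3 pairs both knockdown shares lay above both control shares. The same held for Rpl39l (3.63% and 2.36% against 1.34% and 1.25%) and Rps27l (99.65% and 99.74% against 99.06% and 98.65%), while Rpl3l overlapped. The Rps27l share rests on Rps27, whose values are uncertain as given above. Such separation was common: in level, 30.8% of all genes tested had both knockdown libraries above both controls and 44.8% below. It was not counted for other pairs of genes. In mESC the shares were 76.23% and 70.85% for Rpl22l1, 30.9% and 41.9% for Rps4l, and 6.89% and 8.57% for Rpl10l. These also lay above both control shares. A higher share can come from a lower main gene. Rpl22, Rps4x (960 and 1701 FPKM against 1938 and 1945), Rpl39, Rps27 and Rpl3 were lower in both knockdown libraries, and Rpl10 overlapped. Of the paralogs, Rpl10l was higher in both (69.2 and 106 against 62.8 and 60.2). Rps27l was lower in both (306 and 700 against 737 and 754), and the others overlapped with the controls. None of the paralogs in these pairs passed the test on its own level, while Rpl7l1, given above, did.

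Of 30 ribosome assembly factors, 19 were higher after knockdown and 0 lower, with a median log2 fold change of 0.64. Over all genes tested the shares were 13.6% higher and 23.8% lower, for this list and those that follow. Bop1, part of the complex that matures the large subunit, stood at 78.3 and 84.7 FPKM against 36.2 and 32.8 (log2 fold change 1.22, SE 0.11, limma adjusted p = 0.0062). Of the 14 RNA polymerase I genes 7 were higher and 0 lower, and Polr1b stood at 48.3 and 40.7 against 17.2 and 16.9. Myc, which drives ribosome production, stood at 20.1 and 23.3 against 2.37 and 2.22 (2.78, SE 0.12, limma adjusted p = 0.0060). In all 3 genes both knockdown libraries were above both controls. The wild type mESC libraries also lay above both controls, with Bop1 at 60.5 and 69.0, Polr1b at 33.9 and 34.5 and Myc at 16.7 and 16.0. The controls were thus the lowest of the stem cell groups in these 3 genes, and what set them apart was not tested. Of 77 mitochondrial ribosomal protein genes 6 were higher and 1 lower. The TOP messages outside the set had 1 of 14 higher (Nap1l1) and a median of 0.01, and Nap1l1 lost its call in the fit on all 8 libraries and when either control library was left out (limma adjusted p up to 0.32). Markers of other cell types moved in the same fit. The 8 fibroblast markers summed to 6.51 and 6.41 FPKM after knockdown against 16.0 and 16.8, with Dcn and Postn at 0 in all 4 libraries, and the 2 tested (Pdgfrb, Thy1) were lower. The 3 trophectoderm markers summed to 5.55 and 5.32 against 15.2 and 16.1 (Krt18 lower, the 1 tested), and the 3 primitive endoderm markers to 9.75 and 8.15 against 16.5 and 15.9 (Gata4 and Gata6 lower, the 2 tested). Of the 6 stem cell markers limma called 0, and 1 (Zfp42) had an unadjusted p under 0.05. Their part in these results was not tested.

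The 2 groups of wild type, untreated stem cells by their labels, KD_control and mESC, were compared to see how far they differ. Both are shared with the comparisons above, so these results are not independent of them. By limma 2 of 84 genes were higher in KD_control (Rps27, Rpl3) and 3 lower (Rpl10l, Rpl39l, Rps27a), 5.95% of them. Of all 12595 genes tested 41.4% were called, 26.5% higher and 15.0% lower. The median log2 fold change was 0.25, beside 0.19 over all genes. Without mESC replicate 1, 26 genes were higher and 37 lower with a median of -0.08, beside 45.2% higher and 34.6% lower of all genes. Without mESC replicate 2, 65 were higher and 12 lower with a median of 0.58, beside 53.3% and 33.2%. The lone mESC library is here assumed to vary like the KD_control libraries. With median-ratio scaling 2 were higher and 7 lower.

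Rpl3, which lies near the peptidyl transferase centre, stood at 2229 and 2350 FPKM in KD_control against 1235 and 1390 in the other stem cells, a difference of 0.80 (log2 fold change, SE 0.20, limma adjusted p = 0.039). Rpl10l stood at 62.8 and 60.2 against 128 and 158, a log2 fold change of -1.19 (SE 0.17, limma adjusted p = 0.012). Rpl39l stood at 29.0 and 30.5 against 54.9 and 55.6, a log2 fold change of -0.87 (SE 0.13, limma adjusted p = 0.014). Both paralogs, called higher in mESC than in MEF, were thus lower in the control stem cells than in mESC. Rps27a, made as a fusion with ubiquitin, stood at 847 and 848 FPKM against 1329 and 1336 (-0.65, SE 0.18, limma adjusted p = 0.047). None of these 4 genes overlapped between the groups. When either KD_control library was left out, none of the 4 passed. Rpl3 and Rps27a also lost their calls with no filter on low values (limma adjusted p = 0.10 and 0.096), and Rpl39l and Rps27a in the fit on all 8 libraries (limma adjusted p = 0.060 and 0.098). Of the 30 assembly factors 15 were lower in KD_control and 0 higher, beside 15.0% lower and 26.5% higher of all genes. Myc stood at 2.37 and 2.22 FPKM against 16.7 and 16.0 in mESC. Markers moved here too: of the stem cell markers Klf4 and Nanog were higher in KD_control and Zfp42 was lower, at 34.3 and 36.6 FPKM against 406 and 502, while the 6 summed to 2039 and 2117 against 1565 and 2142. The 8 fibroblast markers summed to 16.0 and 16.8 against 2.18 and 5.92 (Pdgfrb higher, 2 tested), and the 3 primitive endoderm markers to 16.5 and 15.9 against 25.7 and 33.7 (Gata4 and Sox17 lower). The 3 trophectoderm markers summed to 15.2 and 16.1 against 1.65 and 9.48, with Krt18, the 1 tested, not called. Their part in the differences was not tested.

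The RIP libraries ask which RNAs are recovered with Flag-tagged Dppa5a. Ribosomal protein messages were present in every pulldown, IgG included, and 1 of them, Rpl13, passed the test against IgG. Of the 84 genes, 80 passed the filter on low counts (Rpl26, Rpl30, Rpl3l and Rps27 did not). By edgeR 1 of 80 was higher in Flag_RIP than in IgG_RIP, 1.25%, and 0 lower, against 2.32% of 10473 genes called, 1.16% in each direction. In HU_Flag_RIP against IgG_RIP it was again 1 of 80 higher, against 2.86% of all genes called, 1.44% higher and 1.42% lower. The median log2 fold changes were 0.21 and 0.21, beside 0.02 and 0.04 over all genes, with a typical approximate standard error of 0.24. These comparisons share the IgG libraries.

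Rpl13, a large subunit protein whose gene hosts Snord68, stood at 206 and 198 CPM with IgG, 355 and 380 with Flag and 378 and 372 with Flag after HU. All 4 Flag libraries lay above both IgG libraries on this scale, which was not particular to Rpl13. Of the 80 genes, 48 lay above IgG_RIP without overlap in Flag_RIP and 5 below, and in HU_Flag_RIP 42 above and 4 below. This was not counted over all genes. By library size alone the Rpl13 values overlapped, at 298 and 316 with IgG, 280 and 321 with Flag and 295 and 307 with Flag after HU. The log2 fold change was 0.86 (approximate SE 0.22, edgeR adjusted p = 0.041) for Flag_RIP and 0.89 (approximate SE 0.22, edgeR adjusted p = 0.030) for HU_Flag_RIP. Both calls were lost when any 1 library of the compared groups was left out.

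The direction in the pulldowns depends on the scaling. With TMM factors of 1.45 and 1.60 for IgG_RIP and 0.78 to 0.85 for the Flag libraries, 59 of 80 genes had a positive fold change in Flag_RIP. With library size alone, the medians became -0.68 in Flag_RIP and -0.71 in HU_Flag_RIP, while all genes shifted to medians of -0.87 and -0.89. Then 31 and 39 of the genes were lower and 0 higher, beside 21.1% and 25.0% lower and 0.611% and 0.878% higher of all genes, and Rpl13 stood at -0.03 in both. The share of all counts held by these genes was 2.13% and 2.40% with IgG, 1.24% and 1.44% with Flag and 1.26% and 1.42% with Flag after HU. Without the 4 abundant RNAs it was 10.5% and 10.6%, 10.9% and 12.3%, and 11.7% and 12.8%. Counting error is small here (for IgG_RIP replicate 1, an exact 95% interval of 10.46% to 10.60%). The Flag libraries lay below both IgG libraries in the first count and above both in the second, and in each case the exact two-sided permutation test gave p = 0.333, the smallest 2 libraries against 2 allow.

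Among the named genes Rps3 stood at 145 and 122 CPM with IgG, 226 and 194 with Flag and 219 and 194 with Flag after HU, and Rps19, in the same order, at 112 and 94.0, 160 and 157, and 181 and 169. In both the Flag libraries lay above both IgG libraries with TMM factors and below both by library size alone, and neither passed the test. Rpl13a, which hosts 4 snoRNAs (Snord32a, Snord33, Snord34 and Snord35a) and can leave the ribosome, stood at 703 and 846, 670 and 756, and 635 and 838, with overlap. Rpl5 stood at 221 and 289, 198 and 229, and 196 and 227, with overlap as well. The paralog Rps4l stood at 35.8 and 46.2, 44.6 and 51.9, and 42.0 and 44.5, and Rpl10l at 6.97 and 17.1, 9.24 and 7.75, and 8.24 and 11.2. For Rpl10l the IgG libraries differed from each other by more than any Flag library from their mean.

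Of the 84 genes 22 hold 31 snoRNA loci inside their own, and snoRNAs guide the modification of ribosomal RNA. The 22 hosts, all of which passed the filter, had a median log2 fold change of 0.18 in Flag_RIP against IgG_RIP and the 58 others 0.22, and in HU_Flag_RIP the medians were 0.21 and 0.21. Of the 30 assembly factors and 14 TOP messages none was called in either comparison, beside 2.32% and 2.86% of all genes. Among the RNA polymerase I genes the initiation factor Rrn3 was lower in both, with 205 and 340 CPM for IgG, 106 and 118 for Flag and 110 and 107 for Flag after HU. The Flag_RIP call was lost without Flag_RIP replicate 1, IgG_RIP replicate 1 or IgG_RIP replicate 2 (edgeR adjusted p up to 0.29), and the HU_Flag_RIP call without IgG_RIP replicate 2 (edgeR adjusted p = 0.24).

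No ribosomal protein message was called between the Flag pulldowns with and without HU. By edgeR 0 of 80 were called in HU_Flag_RIP against Flag_RIP, 0 had an unadjusted p under 0.05 and DESeq2 called 0, while edgeR called 0.611% of all genes, 0.143% higher and 0.468% lower. The fold changes lay between -0.32 and 0.34 on the log2 scale with a median of -0.01 (all genes 0.00). The 2 highest were Rpl29 (150 and 231 CPM with HU, 135 and 165 without) and Rpl23a (523 and 846, 465 and 642), and the 2 lowest were Rplp1 (333 and 297, 344 and 441) and Rpl39l (5.31 and 5.26, 5.74 and 7.25). With a typical approximate standard error of 0.24, differences of that size are within the spread of these libraries, and a smaller effect of HU was not detectable.

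**Figure D5:**
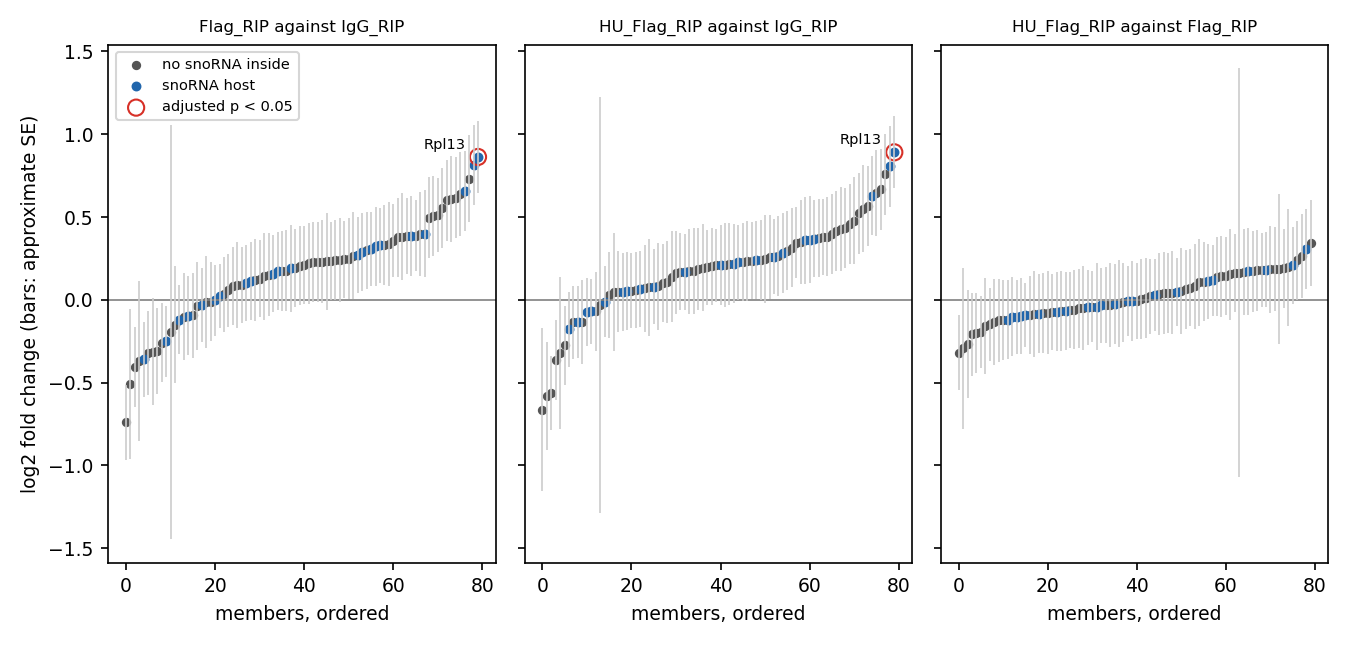
Log2 fold change with approximate standard error of the 80 ribosomal protein genes that passed the filter, ordered within each of the 3 RIP comparisons; blue points are genes that hold a snoRNA and a red ring marks an adjusted p under 0.05 by edgeR. Rpl13 is ringed in both comparisons with IgG, and no gene is ringed between the Flag pulldowns.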

How the data were processed

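RNA-seq (8 libraries) and RIP (6 libraries) were analysed from the deposited tables. The authors deposited gene-level FPKM with confidence bounds, per the file headers, and raw read counts per gene symbol for RIP, as the whole-number deposited values show. HTSeq 0.6.1, Cuffdiff 2.1.1, Cufflinks 2.1.1, TopHat2 2.0.8 and CASAVA 2.19 are listed without roles in the submitters' processing notes, with mm10 as the build. No source used here says whether counting used strand, so reads of antisense partners may be mixed.

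FPKM were summed over loci; 1 failed gene and 25 date-like count symbols were left out. FPKM are not counts and were tested with limma 3.58.1 (trend) on log2(FPKM + 1), using the 4 libraries compared and genes whose average reached 1 FPKM in one of the groups. Counts were tested with edgeR 4.0.16 (quasi-likelihood, TMM, filterByExpr, all 6 libraries) in R 4.3.3; its standard errors are approximated from the F statistic and unreliable for fold changes near 0, and DESeq2 1.42.0 was an alternative. CPM are scaled by TMM unless library size alone is named. Fold changes are on these scales and understate low genes. Adjusted p-values are Benjamini-Hochberg over all genes tested, called under 0.05. FPKM carry no counts; intervals of RIP shares (exact, 95%) cover counting error only. The fits were tested on simulated data with 4-fold changes. They recovered from 62.5% of these (mESC against MEF) to 84.5% (Dppa5a_KD against KD_control). Of the calls, 2.60% (HU_Flag_RIP against Flag_RIP) to 5.30% (mESC against MEF) were false. Python 3.11.15 and matplotlib 3.10.9 drew the figures.

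Members, lists and named genes were chosen with earlier results of these data known. Named were 16 main genes by role, the paralog pairs, Rpl7l1, up to 5 called members per direction and comparison (the 2 highest and 2 lowest where none was called), up to 3 called genes per list by smallest p, and Dppa5a; Rpl35, Rpl27a and the low genes with copies were chosen after their values were seen.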

Additional observations from a re-analysis of the deposited data

How the results depend on the processing

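Each comparison has 2 libraries a group, so 1 library can decide a count, and the cause of the changes below was not tested unless named. The tables give no transcript length, so the planned length correction could not be run as written; an estimate from the confidence bounds took its place. Removing its trend, scaling to an equal median of the ribosomal protein genes, crossing the replicate numbers and leaving the 4 abundant RNAs out of the share were chosen after seeing the data. For mESC against MEF the median log2 fold change, 0.18, lay between -0.09 and 0.45 and turned negative without mESC replicate 2 (-0.09) and with the length trend removed (-0.07).

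Leaving out 1 library gave 3 to 8 called genes for mESC against MEF. For the knockdown it gave 3 to 81, with medians of -0.74 to 0.066. For KD_control against mESC it gave 1 to 77, with medians of -0.079 to 0.58. In the pulldowns it gave 0 called genes in all 3 comparisons, with medians of 0.18 to 0.26 for Flag_RIP and of -0.052 to 0.047 for HU_Flag_RIP against Flag_RIP. For HU_Flag_RIP against Flag_RIP the uncalled Rpl23a lay between -0.086 and 0.60 and Rpl29 between -0.0091 and 0.61, both lowest and reversed without HU_Flag_RIP replicate 2.

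For the knockdown (4 called), the fit on all 8 libraries called 2 and scaling to an equal median called 9. For KD_control against mESC (5 called), no filter called 3, a common sum 11, median-ratio scaling 9 and scaling to an equal median 8, the last with a median of -0.11, while removing the length trend gave a median of -0.084. Library size alone called 31 in Flag_RIP (median -0.68) and 39 in HU_Flag_RIP (median -0.71) against IgG, with Rpl13 at -0.032 and -0.030. DESeq2 called 3 and 2, and dropping the 4 abundant RNAs before scaling called 2 and 2. For Flag_RIP the median was 0.23 with no filter and 0.18 with at least 50 counts in 2 libraries, and that filter gave 0.25 for HU_Flag_RIP against IgG and 0.063 against Flag_RIP; the 2 groups alone gave 0.26 for HU_Flag_RIP against IgG.

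The labels do not say that replicate numbers pair libraries. A replicate block called 7 for the knockdown, 3 for Flag_RIP and 3 for HU_Flag_RIP against IgG, and in the other comparisons the count stayed within 1.5 times. Under it Rpl39 gained its call for the knockdown, and Rpl3 and Rps27a (KD_control against mESC) and Rpl7l1 and Npm1 (mESC against MEF) lost theirs. In mESC against MEF deviations of same-numbered libraries correlated at -0.54, and crossed numbers called 7 genes.

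The difference in share turned to 0.182 percentage points for KD_control against mESC without the 10 most abundant other symbols, and lay between -2.41 and 2.14 with 1 library left out. In the pulldowns it turned to 1.03 and 1.07 for Flag_RIP, 1.69 and 1.74 for HU_Flag_RIP against IgG, and 0.659 and 0.67 against Flag_RIP, without the 4 abundant RNAs and without those 10 symbols; leaving out 1 library gave -0.105 to 0.0914 for the last. Of the alternatives for single named genes, 579 kept direction and side of the threshold, 78 lost the call, 6 gained it and 4 reversed.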
